A study of Acipenser schrenckii with 6 samples.

Results

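The smooth muscle contractile apparatus was examined here in gut tissue of Amur sturgeon (Acipenser schrenckii), as the features of an expression table whose product names carry 1 of 16 phrases for its proteins: myosin-11, the myosin light chains, alpha and aortic actins, tropomyosins, calponins, transgelins, smoothelins, caldesmons, desmin, leiomodins, synemin, filamins and myocardins. Of 82023 features, 117 met the rule. The phrase for gamma-enteric actin matched no feature analysed here. Because the rule reads words, 101 of the 117 are named for the proteins themselves and 16 for a domain or a partner (calponin homology domain proteins, and proteins that interact with or bind filamin). A gene symbol is given for 3 of them and a locus number for the other 114, and they lie on 56 sequences of the table's assembly, which is not given in the sources used here.

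The diets of 2 groups were compared in fish held in net cages ahead of a release into the Songhua River: fresh Limnodrilus, an aquatic oligochaete worm raised in the same water source, against commercial feed. Each diet was given for 30 days and has 3 poly(A) RNA libraries, named below Limnodrilus 1 to 3 and commercial feed 1 to 3. The fish were hatchery-bred with similar genetic background, and the labels give no age. They also do not say whether a library is 1 fish or several, so the p-values below cover the variation among these libraries, which may be technical.

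Smooth muscle contracts when calcium bound to calmodulin switches on myosin light chain kinase, which phosphorylates the regulatory light chain and lets the myosin-11 heavy chain pull on actin. Tropomyosin, calponin, caldesmon and transgelin lie along the actin filament, desmin and synemin form the intermediate filaments, and filamins crosslink actin and anchor it to membranes. Myocardin and the myocardin-related transcription factors (MRTFs) switch on many of these genes with serum response factor. In the gut wall, layers of smooth muscle mix and move the contents. Sturgeon genomes descend from a genome duplication, and most of the proteins here have at least a pair of loci. The sources used here do not say how reads that fit more than 1 locus were counted, so the split between loci of a pair is uncertain.

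Values are FPKM (fragments per kilobase of a feature, scaled to the size of the library), and 3 values in a row are libraries 1 to 3 of a diet. Recovered depth in megareads was 13.9, 19.7 and 17.04 in Limnodrilus libraries and 10.3, 9.95 and 10.5 in commercial feed libraries. On a 1 kb transcript, 3 reads equalled 0.153 to 0.216 FPKM in Limnodrilus libraries and 0.286 to 0.302 FPKM in commercial feed libraries. Of the 117 members, 82 averaged at least 1 FPKM and were tested, 35 were not tested, and 9 of those were at 0 in all 6 libraries. No untested member passed 3.28 FPKM in any library. They are mostly skeletal and cardiac forms. The 17 loci of cardiac and skeletal myosin light chains include 2 that were tested, and the most abundant of them, the ventricular regulatory light chain 2 locus LOC117427756, had 5.46, 5.89 and 4.77 FPKM in Limnodrilus guts and 4.64, 4.03 and 2.44 in commercial feed guts. None of the 6 loci of myosin light chain kinases 2 and 3 was tested, and LOC117964469 (skeletal kinase 2) reached 2.57 FPKM in 1 library.

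Defining markers of smooth muscle were abundant or at least detected. Myosin-11, aortic smooth muscle actin, calponin-1, transgelin, smoothelin, leiomodin-1, desmin and synemin were all found in all 6 libraries. Markers of striated muscle, 115 loci of which 16 were tested and 17 were at 0 throughout, summed to 62.7, 48.7 and 57.6 FPKM in Limnodrilus guts and 131.1, 84.3 and 202.6 in commercial feed guts, so that commercial feed 3 was the highest library. Within them, the summed level of 27 troponin loci was 13.8 to 24.7 FPKM in Limnodrilus guts and 35.5 to 90.5 in commercial feed guts, and that of 33 striated myosin heavy chain loci was 2.87 to 4.96 and 3.55 to 4.72 FPKM. The 20 loci of titin, nebulin, obscurin and myomesin summed to 18.5, 19.6 and 15.9 FPKM in Limnodrilus guts and 37.9, 13.5 and 96.4 in commercial feed guts. M-type creatine kinase was at 0 in 5 of the 6 libraries. Loci named for alpha skeletal muscle actin nevertheless reached 961.9 FPKM.

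Commercial feed libraries differed widely from one another in these genes. Summed over the 117 members, the level was 12032, 7739.7 and 9095 FPKM in Limnodrilus guts and 27345, 16977 and 2643 FPKM in commercial feed guts. Members took 2.67%, 1.76% and 1.99% of recovered reads in Limnodrilus libraries and 6.61%, 4.24% and 0.666% in commercial feed libraries. The diets overlap because commercial feed 1 and 2 lie above all Limnodrilus libraries and commercial feed 3 below all of them. Commercial feed 3 was the lowest of the 6 libraries in 51 of the 82 tested members (62.2%), against 14.5% of all 23644 tested features. Commercial feed 1 was the highest in 43 (52.4%), against 11.1%. In 27 members (32.9%) all 3 Limnodrilus values lay above commercial feed 3 and below commercial feed 1 and 2, a placement found in 2.18% of all tested features. It held for the summed level of 13 of the 30 families of loci with a tested member. The median ratio of commercial feed 1 to commercial feed 3 was 6.15 over 81 members and 0.671 over 23292 features.

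Markers of other cells and the mitochondrial share also differed between the commercial feed libraries. The 10 enterocyte marker loci (villin-1, sucrase-isomaltase, aminopeptidase N and others), 7 of them tested and none at 0 throughout, summed to 284.9, 640.1 and 334.8 FPKM in Limnodrilus guts and 15.2, 43.3 and 276.5 in commercial feed guts. The 20 fibroblast marker loci (collagens, decorin, lumican and others), 1 of them at 0 throughout, summed to 521.6, 340.8 and 534.6 FPKM in Limnodrilus guts and 1436, 1122 and 208.3 in commercial feed guts. Mitochondrial transcripts took 6.42%, 3.19% and 6.03% of reads in Limnodrilus libraries and 23.7%, 3.88% and 2.06% in commercial feed libraries. Fibroblast markers thus had the order of the muscle genes, with commercial feed 1 and 2 above and commercial feed 3 below all Limnodrilus libraries. Enterocyte markers were lower in all 3 commercial feed libraries, with commercial feed 3 nearest to Limnodrilus, and the mitochondrial share stood out in commercial feed 1. In bulk tissue, fewer cells of a type and less RNA per cell cannot be told apart, and the part of the cell marker differences in the results below was not tested. Mitochondrial features, with rRNA and tRNA, were left out of FPKM in 1 of the settings below.

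**Figure D1:**
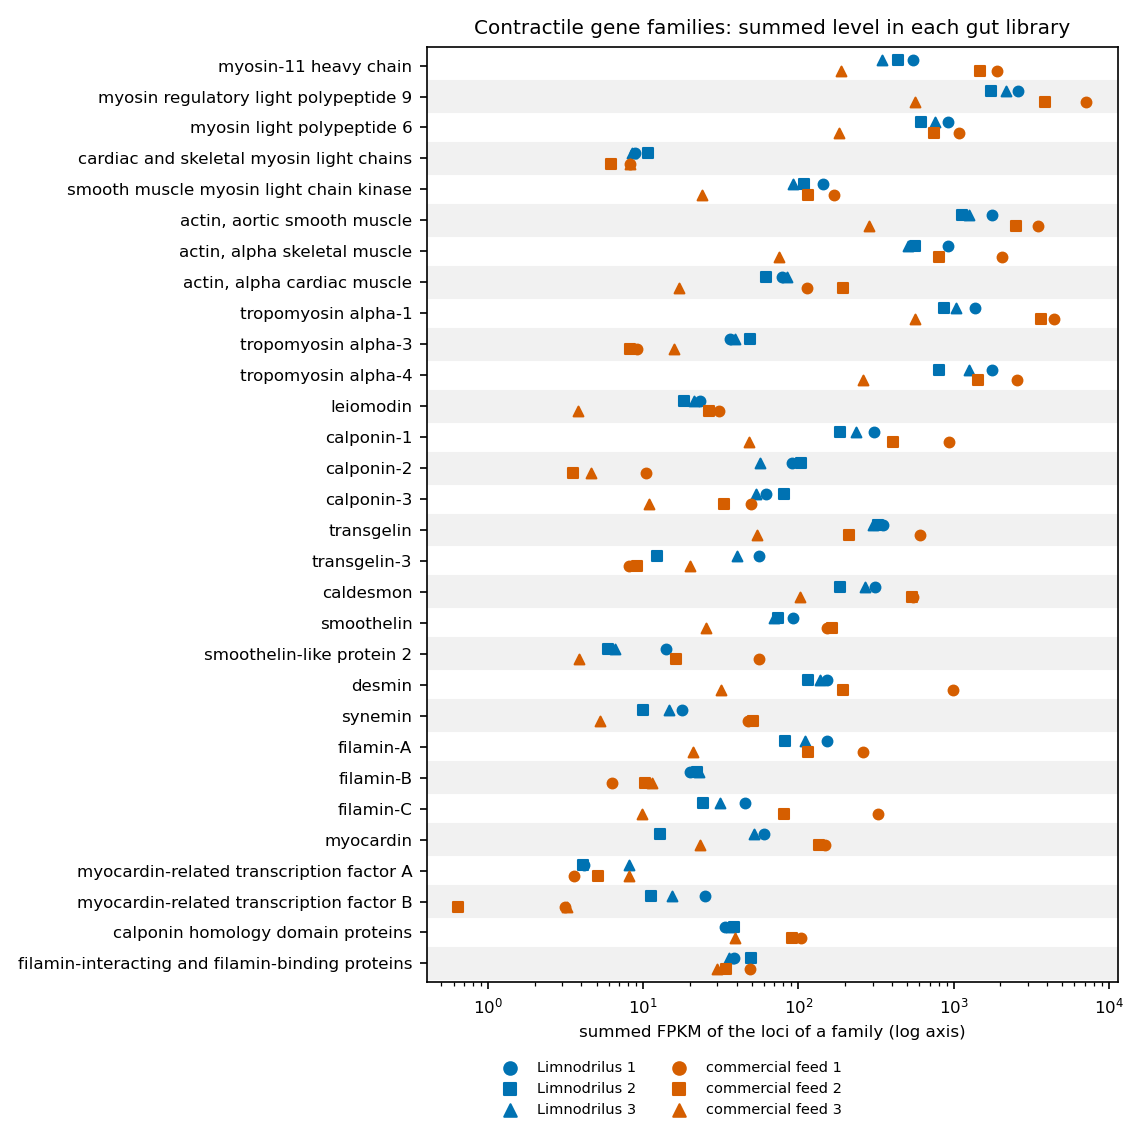
Summed FPKM (log axis) of the loci of each of 30 families with a tested member, 1 row per family, with 1 point per library (blue, Limnodrilus; orange, commercial feed; circle, square and triangle, libraries 1, 2 and 3). In most of the abundant families commercial feed 3 is the lowest point and commercial feed 1 or 2 the highest, with the 3 Limnodrilus libraries between them. Calponin-2, tropomyosin alpha-3, filamin-B and MRTF-B have all Limnodrilus points on the right. So do calponin-3 and the cardiac and skeletal myosin light chains, by narrow gaps.

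Against this spread, 8 of the 82 tested members were higher with Limnodrilus and 1 was lower in limma's test at an adjusted p under 0.05. The same test called 14.0% of all tested features higher and 3.64% lower (3321 and 861 of 23644, 17.7% in all), so the members' counts are below the background in both directions. At an unadjusted p under 0.05 the counts were 19 members and 34.3% of all features. Median log2 fold change was 0.17 over the tested members and 0.24 over all tested features. Median-of-ratios scaling moved the median of all features to -0.02, with 2137 features higher and 1557 lower, and called 6 of the 8 higher members and the 1 lower. With FPKM recomputed without rRNA, tRNA and mitochondrial features, 10 members were higher, the 8 among them, and 1 was lower. Over all features that setting called 3156 higher and 1030 lower. The diets did not overlap in 16 members with all Limnodrilus values higher and in 3 with all lower, against 28.4% and 11.5% of all tested features (39.9% in either direction). The 8 higher loci belong to 4 families: calponin-2, tropomyosin alpha-3 and MRTF-B with both of their loci, and regulatory light polypeptide 9 with 2 of 4.

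**Figure D2:**
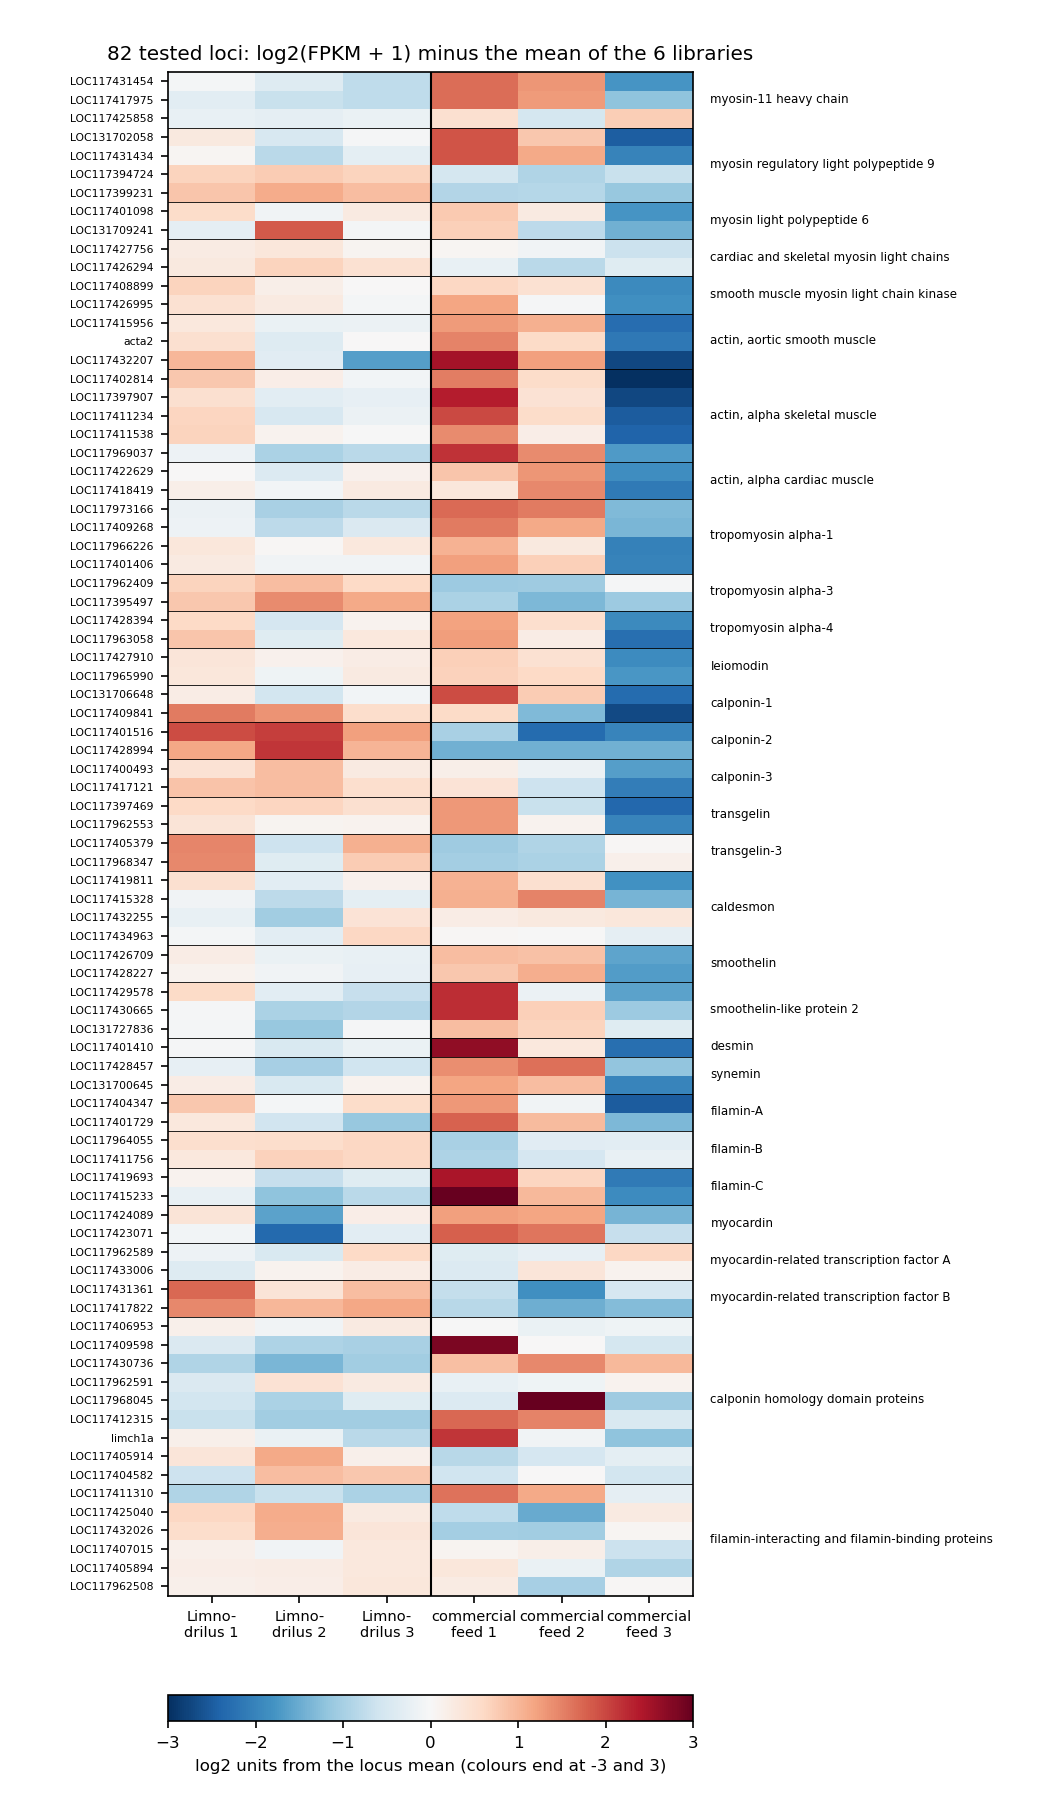
Each of the 82 tested loci (rows, grouped by family) in the 6 libraries (columns), coloured by log2(FPKM + 1) minus that locus's mean over the 6 libraries; red is above and blue below the mean, and colours end at 3 units. The commercial feed 3 column is blue in most families where commercial feed 1 and 2 are red, and both calponin-2, both tropomyosin alpha-3 and both MRTF-B loci are red in all Limnodrilus columns.

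Among the thick filament genes, the smooth muscle myosin heavy chain was not called and 2 regulatory light chain loci were higher with Limnodrilus. Myosin-11-like LOC117431454, the most abundant heavy chain locus, had 464.5, 369.9 and 285.4 FPKM in Limnodrilus guts and 1552, 1218 and 142.1 in commercial feed guts. The Limnodrilus libraries lie close together, below commercial feed 1 and 2 and above commercial feed 3. Its log2 fold change was -0.82 ± 0.86 (SE, adjusted p = 0.539). The 4 heavy chain loci summed to 549.9, 436.0 and 347.6 FPKM in Limnodrilus guts and 1891, 1474 and 189.1 in commercial feed guts.

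Myosin regulatory light polypeptide 9, the light chain whose phosphorylation starts contraction, is encoded by 4 tested loci that form 2 unlike pairs. The abundant pair followed the heavy chain. LOC131702058 had 1187, 703.6 and 957.0 FPKM in Limnodrilus guts and 3581, 1718 and 173.8 in commercial feed guts (log2 fold change -0.14 ± 1.01, adjusted p = 0.938). Its companion LOC117431434, named after its values were seen as are other second loci below, had 958.8, 526.5 and 741.6 FPKM in Limnodrilus guts and 3394, 2023 and 228.8 in commercial feed guts. In both, the commercial feed values lie on either side of every Limnodrilus value. The other pair varied little within a diet. In LOC117399231 and LOC117394724 commercial feed 1 was 1.19 and 1.11 times commercial feed 3, against 20.6 and 14.8 times in the abundant pair. Which cells express the less abundant pair was not tested. LOC117399231 (NC_081192.1, 50942405 to 50947012) had 141.5, 170.7 and 150.3 FPKM in Limnodrilus guts and 42.3, 43.5 and 35.5 in commercial feed guts, means of 154.2 ± 14.96 and 40.4 ± 4.32 (SD, n = 3 each). All Limnodrilus values are higher, and the log2 fold change was 1.91 ± 0.32 (SE, adjusted p = 0.0120). LOC117394724 (NC_081191.1, 67368206 to 67372242) had 321.0, 343.1 and 323.4 FPKM in Limnodrilus guts and 141.5, 108.9 and 127.0 in commercial feed guts, with no overlap. Its log2 fold change was 1.39 ± 0.32 (adjusted p = 0.0271). Leaving out any 1 Limnodrilus library ended both calls, with adjusted p of 0.0532 to 0.0606 for LOC117399231 and 0.0927 to 0.111 for LOC117394724, and leaving out commercial feed 2 ended that of LOC117394724 (0.0557), as did median-of-ratios scaling (0.0773). The log2 fold change of LOC117394724 was 1.29 to 1.48 with 1 library left out and 1.04 after that scaling. That of LOC117399231 was 1.82 to 1.97 with 1 library left out. Without 1 Limnodrilus library, calls over all tested features fell from 4182 to between 638 and 739.

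Myosin light polypeptide 6, the essential light chain shared by smooth muscle and non-muscle myosin, was not called. LOC117401098 had 906.3, 576.9 and 752.1 FPKM in Limnodrilus guts and 1072, 743.1 and 181.0 in commercial feed guts (log2 fold change 0.48 ± 0.66, adjusted p = 0.643). Smooth muscle myosin light chain kinase LOC117408899 had 100.4, 71.0 and 63.4 FPKM in Limnodrilus guts and 97.7, 86.2 and 15.99 in commercial feed guts (0.56 ± 0.68, adjusted p = 0.594). For both genes commercial feed 3 is well below the other 5 libraries, which overlap.

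None of the 10 tested actin loci was called. Aortic smooth muscle actin LOC117415956 had 1066, 748.7 and 762.8 FPKM in Limnodrilus guts and 2070.3, 1785 and 175.6 in commercial feed guts (log2 fold change -0.03 ± 0.90, adjusted p = 0.985). Its partner acta2 had 692.6, 375.5 and 495.1 FPKM in Limnodrilus guts and 1396, 735.6 and 110.3 in commercial feed guts. Limnodrilus values of both loci are again enclosed by those of commercial feed. In the loci named for the striated actins commercial feed 3 was again the lowest library. LOC117402814 (alpha skeletal muscle actin 2) had 583.6, 379.5 and 312.9 FPKM in Limnodrilus guts and 961.9, 485.2 and 40.7 in commercial feed guts (0.61 ± 1.06, adjusted p = 0.716), and commercial feed 3 was the lowest library in all 5 loci of that family. LOC117422629 (alpha cardiac muscle actin 1) had 38.6, 28.4 and 41.7 FPKM in Limnodrilus guts and 68.4, 97.2 and 9.80 in commercial feed guts (-0.19 ± 0.78, adjusted p = 0.888).

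The tropomyosins, coiled-coil proteins that run along actin and gate myosin's access to it, split by family. Tropomyosin alpha-1, the main muscle form, and alpha-4 were abundant and not called. LOC117973166 (alpha-1) had 582.0, 332.9 and 374.8 FPKM in Limnodrilus guts and 2117, 1913 and 261.2 in commercial feed guts (log2 fold change -1.29 ± 0.80, adjusted p = 0.295). LOC117428394 (alpha-4) had 944.4, 439.9 and 674.7 FPKM in Limnodrilus guts and 1438, 887.5 and 164.7 in commercial feed guts (0.14 ± 0.79, adjusted p = 0.922). Diets overlap in both.

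Tropomyosin alpha-3, a gene whose mammalian products include non-muscle cytoskeletal forms, was higher with Limnodrilus at both loci and far less abundant per length. LOC117395497 (NC_081220.1, 14784258 to 14804389) had 14.9, 23.1 and 18.95 FPKM in Limnodrilus guts and 3.65, 2.56 and 3.25 in commercial feed guts, means of 18.98 ± 4.12 and 3.15 ± 0.552 (SD). All Limnodrilus values are higher, and the log2 fold change was 2.25 ± 0.31 (SE, adjusted p = 0.00902). LOC117962409 (NC_081223.1, 12266862 to 12285451) had 21.1, 25.5 and 19.95 FPKM in Limnodrilus guts and 5.46, 5.599 and 12.5 in commercial feed guts. Its groups do not overlap, with commercial feed 3 nearest to Limnodrilus, and the log2 fold change was 1.47 ± 0.39 (adjusted p = 0.0386). That call was lost without any library other than commercial feed 3 (adjusted p 0.0768 to 0.126), under median-of-ratios scaling (0.0581), without the filter on low values (0.0541) and without commercial feed 1 and 2 together (0.146, log2 fold change 0.77). Leiomodin-1 LOC117427910, which nucleates actin filaments in muscle, was not called, with 15.4, 12.8 and 13.8 FPKM in Limnodrilus guts and 19.95, 16.5 and 2.42 in commercial feed guts (0.47 ± 0.66, adjusted p = 0.654).

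The 3 calponins, actin-binding regulators of the filament, showed 3 different patterns. Calponin-1, the form typical of differentiated smooth muscle, was abundant and not called: LOC131706648 had 278.5, 161.8 and 222.7 FPKM in Limnodrilus guts and 926.2, 402.1 and 47.3 in commercial feed guts (log2 fold change -0.28 ± 0.98, adjusted p = 0.870). A less abundant calponin-1 locus, LOC117409841, had 27.5, 23.9 and 13.1 FPKM in Limnodrilus guts and 13.6, 2.88 and 0.483 in commercial feed guts (2.30 ± 0.78, adjusted p = 0.0787). Its diets overlap through Limnodrilus 3 and commercial feed 1.

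Calponin-2, which mammals express in smooth muscle and in many non-muscle cells, had the greatest positive log2 fold changes of the tested members. LOC117401516 (NC_081235.1, 3254249 to 3267344) had 85.8, 93.4 and 51.7 FPKM in Limnodrilus guts and 10.4, 3.51 and 4.63 in commercial feed guts, means of 76.9 ± 22.2 and 6.18 ± 3.70 (SD). The log2 fold change was 3.51 ± 0.45 (SE, adjusted p = 0.00799). The commercial feed mean was 4.07 FPKM without commercial feed 1. LOC117428994 (NC_081237.1, 2821306 to 2832566) had 5.12, 11.02 and 4.54 FPKM in Limnodrilus guts, from 79, 241 and 86 reads, and no read in any commercial feed gut. Its log2 fold change was 2.89 ± 0.37 (adjusted p = 0.00799). Against a floor of 3 reads per commercial feed library the Limnodrilus mean of this locus was at least 26.2-fold higher, a bound that was not tested. Both loci are separated between diets and kept their calls without any 1 library. Calponin-3, also found in non-muscle cells of mammals, was not called although the diets did not overlap: LOC117400493 had 40.1, 57.3 and 36.2 FPKM in Limnodrilus guts and 33.8, 26.1 and 8.82 in commercial feed guts (1.09 ± 0.52, adjusted p = 0.181).

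Transgelin, a calponin relative and early smooth muscle marker, did not pass the test. LOC117397469 had 183.1, 188.2 and 167.7 FPKM in Limnodrilus guts and 294.8, 74.7 and 22.8 in commercial feed guts (log2 fold change 1.16 ± 0.82, adjusted p = 0.358). The Limnodrilus libraries agree closely and lie within the commercial feed range. Transgelin-3-like LOC117405379, a relative named for a form found in mammalian neurons, had 45.0, 9.74 and 33.9 FPKM in Limnodrilus guts and 6.87, 7.88 and 16.1 in commercial feed guts (1.28 ± 0.60, adjusted p = 0.174), and Limnodrilus 2 overlaps commercial feed.

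Caldesmon, an actin-binding inhibitor of contraction, was annotated only as the non-muscle form, and none of its 4 tested loci was called. LOC117419811 had 190.3, 109.7 and 149.1 FPKM in Limnodrilus guts and 280.6, 192.0 and 38.3 in commercial feed guts (log2 fold change 0.19 ± 0.72, adjusted p = 0.877). Smoothelin, a marker of contractile smooth muscle, had 48.7, 36.0 and 35.2 FPKM in Limnodrilus guts and 79.8, 76.7 and 13.2 in commercial feed guts at LOC117426709 (-0.14 ± 0.67, adjusted p = 0.905). Smoothelin-like protein 2 LOC117429578 had 7.55, 3.58 and 2.56 FPKM in Limnodrilus guts and 25.5, 4.11 and 0.879 in commercial feed guts (-0.29 ± 0.89, adjusted p = 0.846). In all 3 genes the Limnodrilus values fall between the extremes of commercial feed.

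Among the scaffold genes, desmin, the muscle intermediate filament protein, had a single tested locus and a wide spread. LOC117401410 had 151.5, 114.4 and 135.2 FPKM in Limnodrilus guts and 986.0, 194.2 and 31.8 in commercial feed guts (log2 fold change -0.47 ± 1.07, adjusted p = 0.792). Commercial feed 1 was 31.1-fold above commercial feed 3. Its partner synemin, LOC117428457, had 8.99, 4.87 and 6.73 FPKM in Limnodrilus guts and 29.8, 35.9 and 4.15 in commercial feed guts (-1.23 ± 0.73, adjusted p = 0.274).

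The 3 filamins differed in level and in the order of the libraries. Filamin-A LOC117404347 had 119.1, 65.0 and 99.0 FPKM in Limnodrilus guts and 169.4, 63.4 and 11.1 in commercial feed guts (log2 fold change 0.86 ± 0.88, adjusted p = 0.525). Filamin-C LOC117419693, the muscle form, had 29.1, 16.5 and 20.9 FPKM in Limnodrilus guts and 151.5, 42.8 and 5.45 in commercial feed guts (-0.63 ± 1.01, adjusted p = 0.692). Both have commercial feed values on either side of the Limnodrilus ones. Filamin-B did not follow them: LOC117964055 had 13.8, 13.9 and 14.96 FPKM in Limnodrilus guts and 4.29, 7.26 and 7.41 in commercial feed guts, without overlap, and narrowly missed the threshold (1.09 ± 0.32, adjusted p = 0.0533). Its second locus LOC117411756 was alike, with a log2 fold change of 1.09 ± 0.32 and an adjusted p of 0.0521.

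The coactivators that switch on contractile genes also differed by family. Myocardin, the muscle-restricted member, had 2 tested loci that were not called. LOC117424089 had 40.4, 9.43 and 35.4 FPKM in Limnodrilus guts and 73.2, 71.4 and 11.02 in commercial feed guts (log2 fold change -0.68 ± 0.83, adjusted p = 0.599), and LOC117423071 had 19.6, 3.34 and 16.5 FPKM in Limnodrilus guts and 74.8, 65.2 and 12.3 in commercial feed guts (-1.81 ± 0.83, adjusted p = 0.168). In both loci Limnodrilus 2 is the lowest library of its diet and of all 6. MRTF-A-like LOC117962589 had 3.37, 2.55 and 6.37 FPKM in Limnodrilus guts and 2.79, 3.12 and 6.53 in commercial feed guts, a log2 fold change of -0.01 ± 0.42 (adjusted p = 0.987).

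MRTF-B was higher with Limnodrilus at both loci. LOC117417822 (NC_081201.1, 6454208 to 6500098) had 6.52, 4.58 and 5.25 FPKM in Limnodrilus guts and 0.572, 0 and 0.125 in commercial feed guts, from 413, 412 and 409 reads against 27, 0 and 6. The means were 5.45 ± 0.980 and 0.232 ± 0.301 FPKM (SD), and the commercial feed mean was 0.0626 without commercial feed 1. Its log2 fold change was 2.40 ± 0.32 (SE, adjusted p = 0.00842), and the call was kept without any 1 library. LOC117431361 (NC_081210.1, 5353338 to 5401582) had 18.3, 6.67 and 10.2 FPKM in Limnodrilus guts and 2.56, 0.643 and 3.11 in commercial feed guts. Its groups do not overlap (2.03 ± 0.49, adjusted p = 0.0298). That call was lost without any Limnodrilus library (adjusted p 0.0638 to 0.110) or commercial feed 2 (0.0776), and without the filter on low values (0.0565) or without commercial feed 1 and 2 together (0.120). Its log2 fold change was 1.63 to 2.35 with 1 library left out.

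The single lower call was a member named for a domain and not a contractile protein, 1 of 15 such loci tested. Leucine-rich repeat and calponin homology domain-containing protein 2-like LOC117430736 (NC_081214.1, 12285284 to 12368540) had 2.76, 1.69 and 2.36 FPKM in Limnodrilus guts and 12.1, 17.9 and 12.7 in commercial feed guts, means of 2.27 ± 0.540 and 14.2 ± 3.18 (SD). All Limnodrilus values are lower, the log2 fold change was -2.21 ± 0.31 (SE, adjusted p = 0.00903), and the call was kept without any 1 library. A second such locus, LOC117412315, had a log2 fold change of -1.83 and an adjusted p of 0.0635, while protein 1 of the family, LOC117406953, had 11.3, 9.27 and 12.3 FPKM in Limnodrilus guts and 9.86, 8.60 and 9.03 in commercial feed guts (0.23 ± 0.29, adjusted p = 0.619). Filamin-A-interacting protein 1-like LOC117411310 had 4.16, 5.06 and 3.997 FPKM in Limnodrilus guts and 28.6, 20.2 and 6.97 in commercial feed guts, with no overlap (-1.67 ± 0.50, adjusted p = 0.0562).

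**Figure D3:**
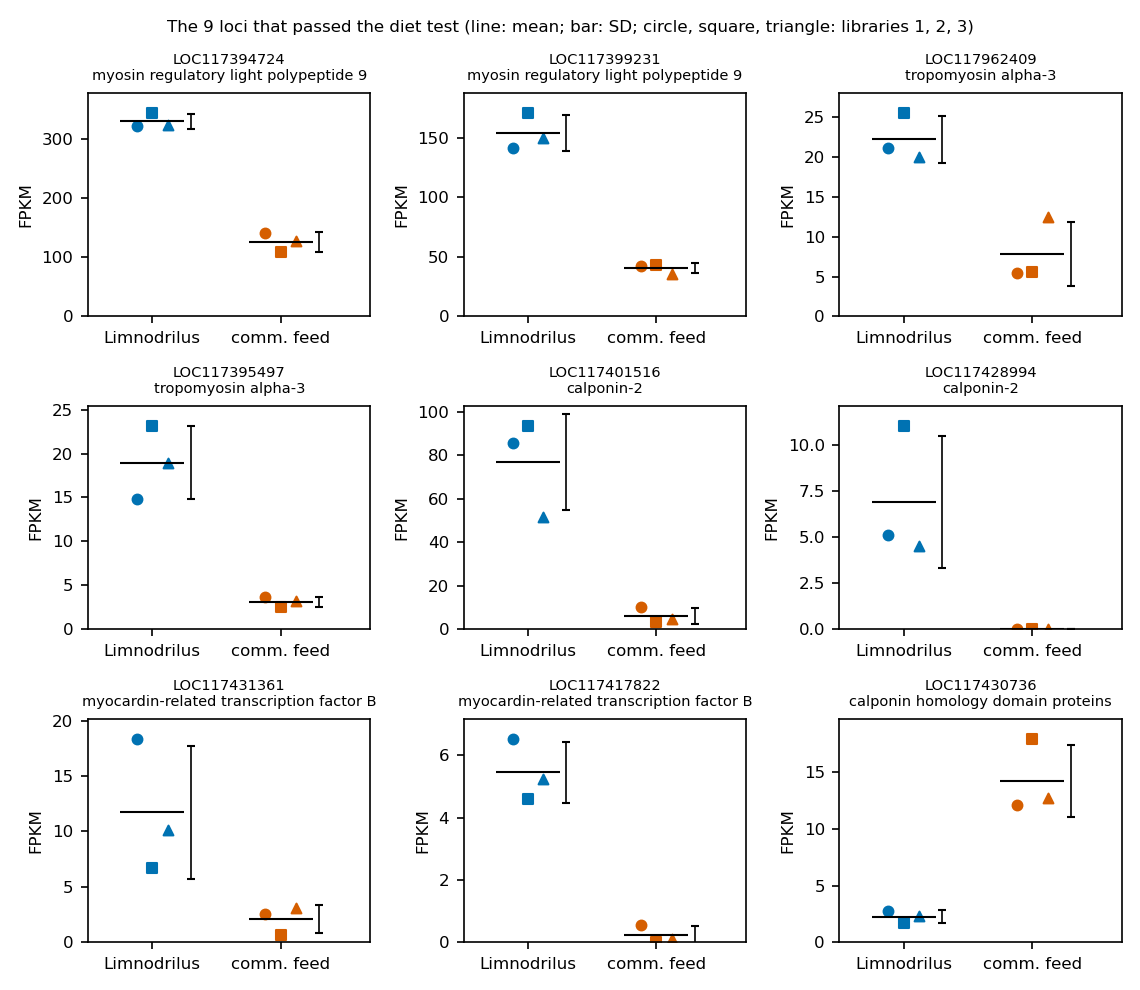
FPKM (linear axes from 0) of the 9 loci that passed the diet test, 1 panel each, with Limnodrilus left of commercial feed; symbols are libraries 1, 2 and 3, lines the means and bars the SD (n = 3 each). The 8 loci with higher Limnodrilus values and LOC117430736, with lower ones, show no overlap between diets.

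Because commercial feed 3 stood apart, the test was repeated without it (3 against 2 libraries). It was left out after it was seen to be the lowest library in 51 of the 82 tested members, against 14.5% of all tested features. That choice favours lower calls among members, and the adjusted p-values below do not account for it. All 8 higher members were called again, within 12 in all, against 20.7% of all tested features. The other 4 were both filamin-B loci and both loci of filamin-binding LIM protein 1, an adaptor between filamin and adhesion sites. In all 4, commercial feed 3 was the highest commercial feed library, so leaving it out favours these higher calls as well. Lower members numbered 17, of which 14 are named for the proteins, against 5.97% of all tested features, and the members' median log2 fold change became -0.53, with 0.38 over all features. Those 14 include 2 myosin-11 loci, 2 tropomyosin alpha-1 loci and 1 locus each of regulatory light polypeptide 9, skeletal and cardiac alpha actin, caldesmon, smoothelin, smoothelin-like protein 2, synemin, filamin-A, filamin-C and myocardin. Myosin-11-like LOC117431454 averaged 373.3 FPKM with Limnodrilus and 1385 in commercial feed 1 and 2, a log2 fold change of -1.91 ± 0.42 (adjusted p = 0.0199). Tropomyosin alpha-1 LOC117973166 averaged 429.9 and 2015 FPKM (-2.27 ± 0.44, adjusted p = 0.0146), and synemin LOC117428457 6.86 and 32.8 FPKM (-2.13 ± 0.34, adjusted p = 0.0101). Aortic actin LOC117415956 was not called in that comparison (-1.18, adjusted p = 0.0832).

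With commercial feed 3 as the only commercial feed library, and its variation assumed to be like that of the others, the picture turned: 36 members were higher and 1 lower, against 8.38% and 8.12% of all tested features, with a median log2 fold change of 1.42, and 6 of the 8 were among the 36. Myosin-11-like LOC117431454 then had a log2 fold change of 1.36 and aortic actin LOC117415956 one of 2.26. Commercial feed 3 was kept alone after it was seen to be the lowest library in 51 of the 82 tested members. That choice favours higher calls among members, and 1 library gives no spread of its own. The counts of this comparison therefore cannot be read as an excess over the shares of all tested features. The direction of the log2 fold change for the bulk of the contractile genes thus depends on which commercial feed libraries are used.

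**Figure D4:**
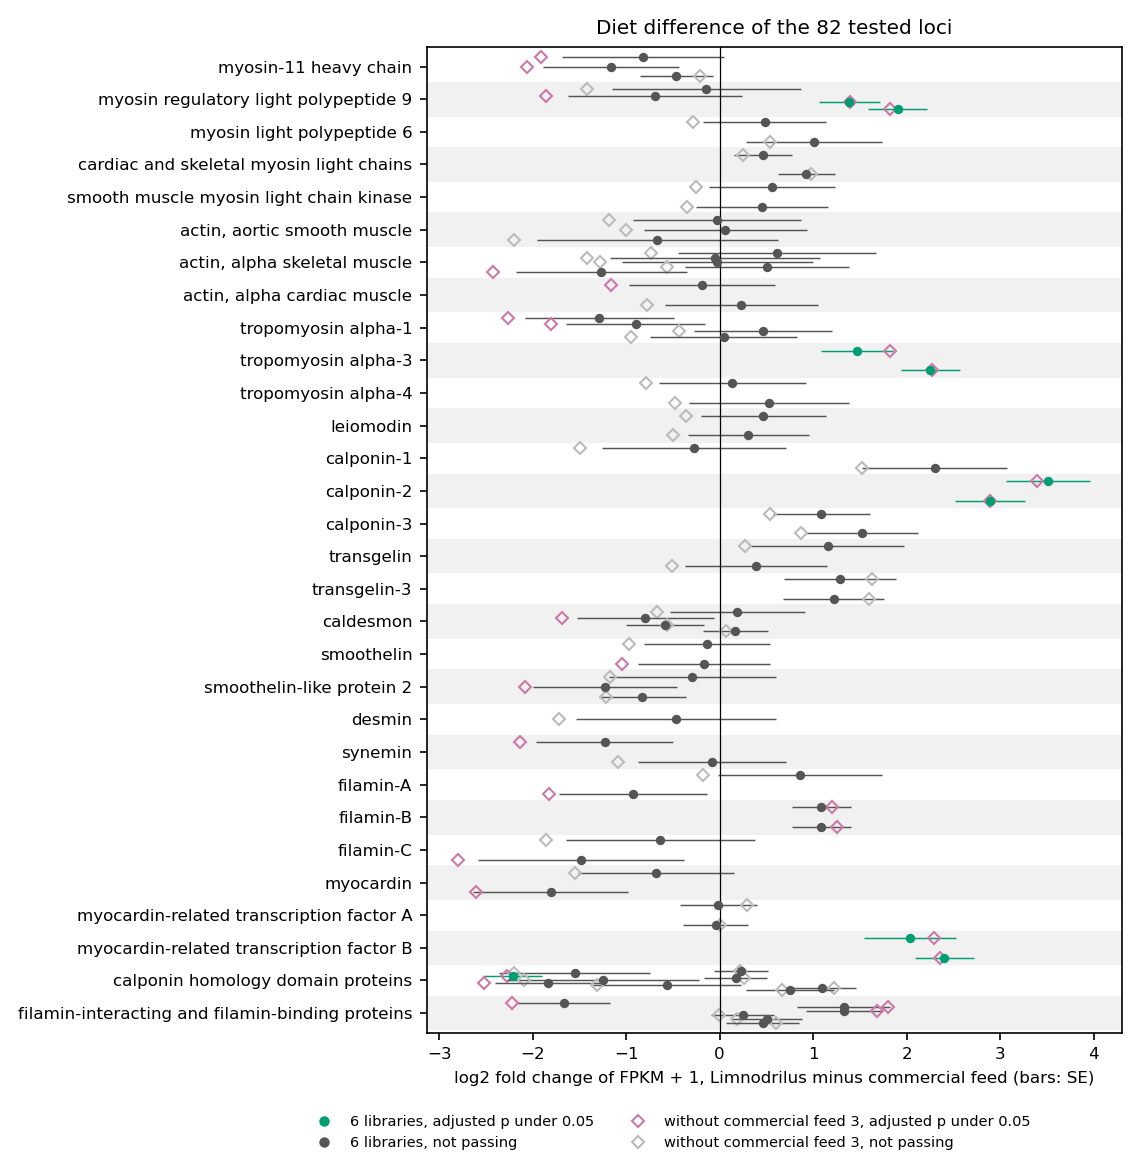
Log2 fold change of FPKM + 1 (x axis, Limnodrilus minus commercial feed) for each of the 82 tested loci by family; filled circles with SE bars use all 6 libraries and open diamonds leave out commercial feed 3, coloured where the adjusted p is under 0.05. Without that library most of the abundant families shift left, while calponin-2, tropomyosin alpha-3, MRTF-B and the 2 called regulatory light polypeptide 9 loci stay right of 1.

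Proportions within the apparatus were taken by dividing each family's summed FPKM by that of aortic actin in the same library. These ratios were chosen after values were seen and are descriptions without a test, since an exact permutation test of 3 against 3 cannot go below p = 0.1. Of 30 families, 2 had all Limnodrilus ratios higher (calponin-2 and transgelin), 5 all lower (myosin-11, tropomyosin alpha-1, synemin, filamin-C and myocardin) and 23 overlapped. The gap was narrow for transgelin (0.198 in Limnodrilus 1, 0.189 in commercial feed 3). It was narrow too for myocardin (0.0412 in Limnodrilus 3, 0.0422 in commercial feed 1). All these ratios share 1 denominator, so the families are not independent. Locus by locus, 7 of 82 members were higher and 14 lower without overlap, against 1.25% and 2.23% of all tested features divided in the same way. Undivided, those shares of all tested features were 28.4% and 11.5%. Summed aortic actin was 3510, 2539 and 286.3 FPKM in commercial feed guts, so dividing by it spreads the commercial feed values of features that do not follow it. The members' counts therefore cannot be read as an excess over the divided shares.

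Myosin-11 over aortic actin was 0.310, 0.386 and 0.276 in Limnodrilus guts and 0.539, 0.581 and 0.661 in commercial feed guts. Commercial feed 3, lowest in both genes, has the highest ratio of the 6. Tropomyosin alpha-1 over aortic actin was 0.773, 0.764 and 0.827 in Limnodrilus guts and 1.27, 1.43 and 1.97 in commercial feed guts. Over tropomyosin alpha-4 the alpha-1 level was 0.772, 1.08 and 0.829 in Limnodrilus guts and 1.75, 2.54 and 2.16 in commercial feed guts, a mean log2 difference of -1.27. As a share of the 3 tropomyosin families, alpha-1 made up 43.1%, 50.5% and 44.6% with Limnodrilus and 63.5%, 71.6% and 67.1% with commercial feed. In these ratios all 3 commercial feed libraries lie above all Limnodrilus libraries, commercial feed 3 included.

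Calponin-2 made up 19.8%, 28.2% and 16.3% of calponin FPKM in Limnodrilus guts and 1.04%, 0.794% and 7.32% in commercial feed guts. Filamin-C made up 20.7%, 18.8% and 18.97% of filamin FPKM in Limnodrilus guts and 54.7%, 39.0% and 23.4% in commercial feed guts. Both shares separate the diets, with commercial feed 3 nearest to Limnodrilus. Other shares overlapped. Tropomyosin alpha-3 was 1.13%, 2.84% and 1.66% of tropomyosin FPKM in Limnodrilus guts and 0.130%, 0.161% and 1.88% in commercial feed guts. The 2 called loci of regulatory light polypeptide 9 held 17.7%, 29.5% and 21.8% of that family in Limnodrilus guts and 2.57%, 3.91% and 28.7% in commercial feed guts. In both cases commercial feed 3 lies within the Limnodrilus range and commercial feed 1 and 2 below it.

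**Figure D5:**
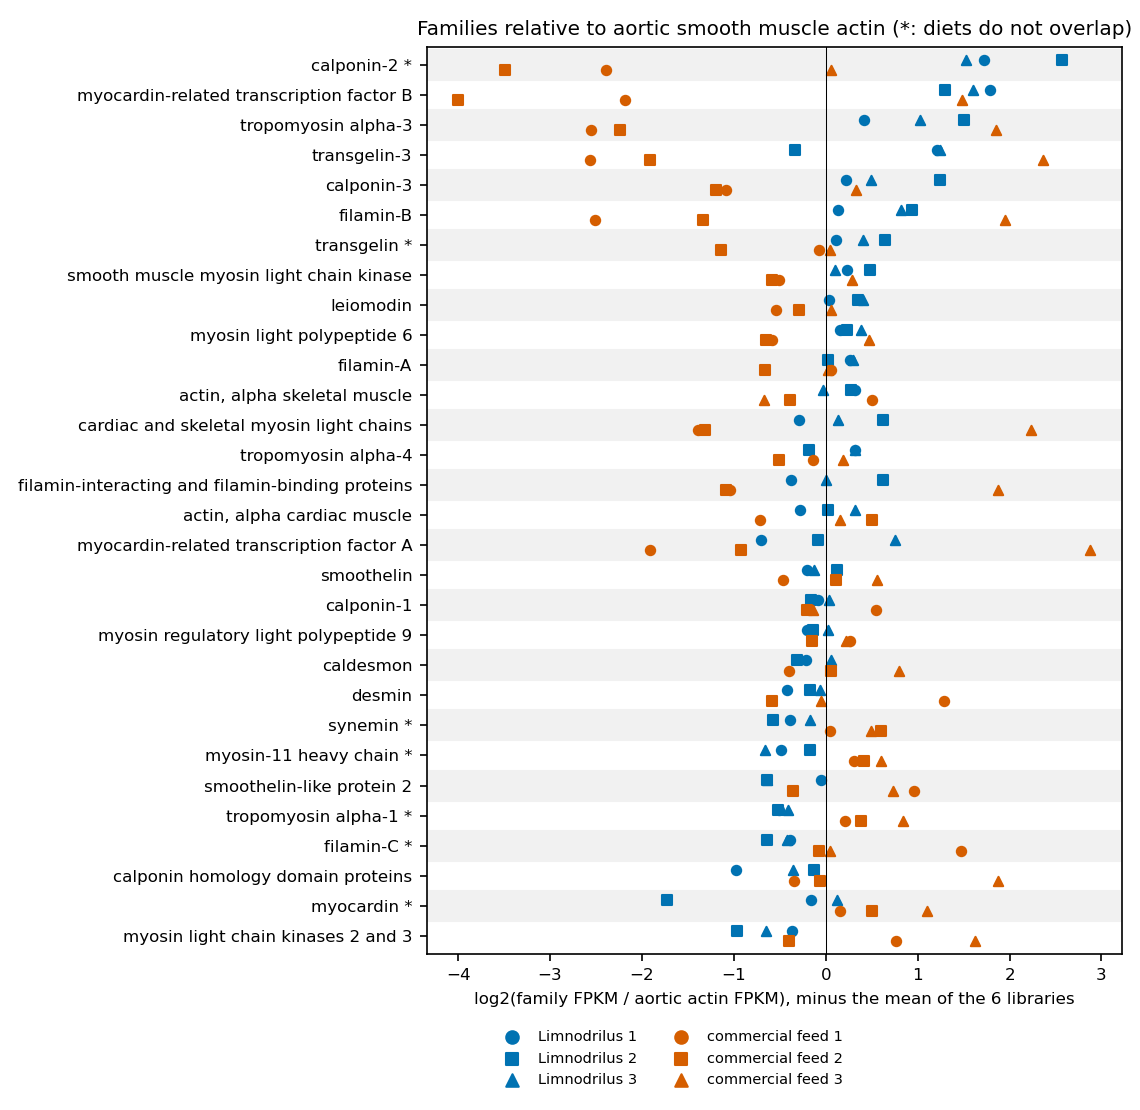
Family FPKM over aortic smooth muscle actin FPKM in the same library, as log2 minus the mean of the 6 libraries, for 30 families ordered by the difference between diets; colours and symbols are diets and libraries, and an asterisk marks families whose diets do not overlap. Myosin-11, tropomyosin alpha-1, synemin, filamin-C and myocardin have all Limnodrilus points left of all commercial feed points, and calponin-2 and transgelin have them on the right.

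The genes that control contraction were followed in a list of calmodulins, kinases, phosphatase subunits, channels and receptors. Of 55 tested loci, 8 were higher and 1 lower, which is near the background of 14.0% and below that of 3.64% of all tested features. Among the higher were 3 calmodulin-1 loci, and LOC117396941 had 130.6, 156.7 and 130.6 FPKM in Limnodrilus guts and 40.5, 21.5 and 28.7 in commercial feed guts (log2 fold change 2.21 ± 0.36, adjusted p = 0.0114). The calmodulin-1 locus of highest mean, LOC117421147, had 457.5, 467.1 and 441.6 FPKM in Limnodrilus guts and 355.7, 566.4 and 439.7 in commercial feed guts (0.03 ± 0.35, adjusted p = 0.962). Death-associated protein kinase 3, which can phosphorylate the regulatory light chain without calcium, was higher at 2 loci, with 8.70, 14.9 and 9.58 FPKM in Limnodrilus guts and 3.17, 1.82 and 1.09 in commercial feed guts at LOC131721036 (2.02 ± 0.38, adjusted p = 0.0154). None of the Limnodrilus values of these 2 called loci overlaps commercial feed.

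The lower locus, inositol 1,4,5-triphosphate receptor associated 2-like LOC117431955, is named for a partner of a receptor and not for the receptor. It had 56.0, 20.6 and 48.4 FPKM in Limnodrilus guts and 144.4, 365.2 and 94.1 in commercial feed guts (-2.13 ± 0.60, adjusted p = 0.0480). Its part in contraction was not tested. Other higher loci included a second locus of death-associated protein kinase 3, a cGMP-dependent protein kinase 1 and a myosin phosphatase regulatory subunit 12C, with log2 fold changes of 1.85, 1.61 and 1.27. Commercial feed 3 was the lowest library in 15 of the 55 tested loci of the list, against 14.5% of all tested features. Without it, a choice that favours lower calls here too, 9 were higher and 8 lower, against 20.7% and 5.97%.

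Regulators and LIM proteins linked to serum response factor had 2 higher loci of 42 and none lower, against 14.0% and 3.64% of all tested features. Commercial feed 3 was the lowest library in 24 of the 42. When it was left out, a choice that favours lower calls here, 6 were lower, against 5.97%. Cysteine-rich protein 1 LOC131697578, a small LIM protein abundant in gut, had 208.2, 235.2 and 266.8 FPKM in Limnodrilus guts and 74.8, 111.8 and 67.6 in commercial feed guts (log2 fold change 1.499 ± 0.354, adjusted p = 0.0285). All Limnodrilus values are higher. PDZ and LIM domain protein 7-like LOC117413328 was the other higher locus (2.07 ± 0.45, adjusted p = 0.0228).

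Dense plaques tie actin to the cell membrane. Of 43 tested loci for them and for caveolae, 2 were higher and none lower, against 14.0% and 3.64% of all tested features, and both of the higher ones encode alpha-actinin-4, the non-muscle actin crosslinker. LOC117415500 had 10.8, 19.8 and 13.8 FPKM in Limnodrilus guts and 2.07, 2.62 and 1.83 in commercial feed guts (log2 fold change 2.28 ± 0.33, adjusted p = 0.00921). Caveolin-1-like LOC117414902, the most abundant of the list, had 178.2, 95.8 and 104.8 FPKM in Limnodrilus guts and 492.7, 215.5 and 35.9 in commercial feed guts, the library order of the muscle genes (-0.37 ± 0.88, adjusted p = 0.798). Commercial feed 3 was the lowest library in 27 of the 43, against 14.5% of all tested features. Without it, a choice that favours lower calls here too, 14 were lower, against 5.97%.

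The non-muscle counterparts of the contractile proteins, cytoplasmic actins, non-muscle myosins and vimentin, had 2 higher loci of 8 and none lower, with 14.0% and 3.64% over all tested features. Cytoplasmic actin type 5 LOC117424565 had 693.0, 861.9 and 674.6 FPKM in Limnodrilus guts and 401.8, 186.5 and 120.7 in commercial feed guts (log2 fold change 1.82 ± 0.49, adjusted p = 0.0415). Myosin-10 LOC117410060, a non-muscle heavy chain, had 1.26, 5.78 and 2.29 FPKM in Limnodrilus guts and 0.327, 0.0162 and 0.261 in commercial feed guts (1.63 ± 0.44, adjusted p = 0.0432). Both are separated between diets. Cytoplasmic actin 2 LOC117418240, the most abundant of them, had 1742, 2359.6 and 1961 FPKM in Limnodrilus guts and 1671, 2277 and 1235 in commercial feed guts, which overlap (0.26 ± 0.38, adjusted p = 0.669). Commercial feed 3 was the lowest library in 6 of the 8 tested loci of the list. Without it 1 was higher and 1 lower, against 20.7% and 5.97% of all tested features.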

How the data were processed

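Gut poly(A) RNA of 3 libraries per diet was sequenced. The authors deposited 1 table of FPKM per feature with a length in bases, and the submitters' processing notes name cutadapt 1.9 and the build mm10, which is not one of the sequence names in the table. For the aligner, the counter, strand use and multi-mapping reads the entry is: not given in the sources used here. Multiplying FPKM by length gave whole reads (within 0.1) for 100% of values up to 20 reads, and this yielded the depths and the reads of limma-voom. Features averaging at least 1 FPKM (23644 of 82023) were compared on log2(FPKM + 1) with limma-trend (limma 3.58.1, R 4.3.3), 2-sided, with Benjamini-Hochberg adjustment over all of them. A fold change on this scale understates that of low genes. The script was tested on simulated data in which no library of a diet departed from the others. That test therefore does not cover a spread like that of commercial feed 3. Members, families, marker and pathway lists and ratios were chosen with earlier results of these data known. Named by rule were each family's most abundant locus and up to 2 called loci per direction, and each list's most abundant and up to 3 called. List matches naming another protein (26) were left out. Alternatives changed pseudocount, filter, scaling, model and libraries. No reference sequence was used, so none is printed.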

Additional observations from a re-analysis of the deposited data

How the results depend on the processing

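Counts of calls depended on the libraries used. All tested features called numbered 4182 with 6 libraries, 638 to 6295 with 1 library left out, 2625 at a minimum mean of 5 FPKM and 2607 with the replicate block. Members called higher numbered 8, and 4 to 12 with 1 library left out. Members called lower numbered 1, 1 to 17 with 1 library left out, and 2 both without a filter and at a minimum mean of 5 FPKM. Scaling moved the split of all calls between higher and lower: 3321 and 861 as deposited, 3405 and 649 as TPM, 2298 and 1643 after quantile normalization, where the median of all features was -0.03, and 2137 and 1557 after median-of-ratios scaling. The labels do not say that equal numbers in the titles pair libraries. Correlations of the deviations were 0.187, -0.0692 and 0.0747 for same numbers and -0.251 to 0.133 for other numbers. With 3 libraries per diet these values cannot decide whether libraries are paired. With the replicate block 7 members were higher, 6 of them among the 8, and 1 lower. LOC117394724 (adjusted p = 0.0773) and LOC117962409 (0.0681) lost their calls at the same fold. The cause of these differences was not tested.

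Of 36 named members, all kept direction and side of the threshold with a pseudocount of 0.1, limma without trend, robust limma-trend and limma-voom. Without commercial feed 1 and 2, 12 loci that were not called with all 6 libraries reversed their log2 fold change: LOC117431454 to 1.36, LOC131702058 to 2.41, LOC117415956 to 2.26, LOC117422629 to 1.77, LOC117973166 to 0.67, LOC131706648 to 2.17, LOC117426709 to 1.51, LOC117429578 to 1.46, LOC117401410 to 2.03, LOC117428457 to 0.58, LOC117419693 to 1.81 and LOC117424089 to 1.06. Quantile normalization gave 0.18 for LOC131702058, 0.21 for LOC117415956 and -0.0072 for LOC117406953. TPM gave 0.091 for LOC117415956 and 0.083 for LOC117962589, and median-of-ratios scaling -0.21 for LOC117428394, -0.16 for LOC117419811 and -0.095 for LOC117406953. With 1 library left out, loci that changed sign, none of them called with all 6 libraries, ranged from -0.28 to 0.99 (LOC117401098), -1.71 to 0.74 (LOC117401410), -0.73 to 1.53 (LOC117402814), -0.18 to 1.73 (LOC117404347), -0.26 to 1.01 (LOC117408899), -1.18 to 0.60 (LOC117415956), -1.85 to 0.43 (LOC117419693), -0.67 to 0.76 (LOC117419811), -1.17 to 0.43 (LOC117422629), -0.97 to 0.29 (LOC117426709), -0.36 to 0.95 (LOC117427910), -0.79 to 0.77 (LOC117428394), -1.17 to 0.74 (LOC117429578), -0.31 to 0.30 (LOC117962589), -1.42 to 0.76 (LOC131702058) and -1.50 to 0.64 (LOC131706648). Depth limits the lowest loci: 3 reads on 1 kb are up to 0.302 FPKM.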

Other observations

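Markers of the other cells of the gut wall were followed beside the muscle genes in the same test, with the background shares given above. Anoctamin-1-like LOC117434874, a chloride channel of the pacemaker cells of Cajal and the only tested locus of 4 for that cell, was lower, with 0.989, 0.690 and 1.48 FPKM in Limnodrilus guts and 7.04, 3.16 and 4.17 in commercial feed guts (log2 fold change -1.46 ± 0.35, adjusted p = 0.0309). The 4 loci summed to 2.42, 3.21 and 3.44 FPKM in Limnodrilus guts and 8.95, 3.67 and 5.50 in commercial feed guts. The part of these sums outside LOC117434874 overlaps between diets. Of 5 tested loci for enteric neurons and glia, 1 was higher, while the median log2 fold change of the 5 was -0.19. The higher locus, neurofilament heavy polypeptide-like LOC131739323, had 10.4, 8.76 and 6.51 FPKM in Limnodrilus guts and 0.168, 1.39 and 1.41 in commercial feed guts (2.32 ± 0.39, adjusted p = 0.0122). Diets do not overlap in the anoctamin-1-like and neurofilament loci. Of 14 loci for endothelium and pericytes, 1 was higher, regulator of G-protein signaling 5-like LOC117417309 (2.005 ± 0.471, adjusted p = 0.0280), while the median log2 fold change of the 14 was -0.42. Fibroblast loci had 1 higher and 1 lower of 14, both collagen alpha-1(I), and a median log2 fold change of -0.28. Enterocyte loci had 2 higher of 7 and none lower, and a median log2 fold change of 2.63. In 6 of these 7 all Limnodrilus values were higher, against 28.4% of all tested features. Without commercial feed 3, all 7 enterocyte loci were higher, with a median log2 fold change of 3.32. Of the 14 fibroblast loci 1 was then higher and 5 lower, with a median of -1.06. All tested features had 20.7% higher and 5.97% lower. The marker sums of that library had been seen before, so leaving it out favours these calls.

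Of 16 tested striated muscle loci, 1 was higher and 1 lower, against 14.0% and 3.64% of all tested features. The median log2 fold change of the 16 was -0.58. Telethonin (tcap) was the higher locus, with 2.27, 2.41 and 1.78 FPKM in Limnodrilus guts and 0.0566, 0 and 0.0557 in commercial feed guts (1.5997 ± 0.291, adjusted p = 0.0147). Myozenin-2-like LOC117408806 was the lower locus, with 1.25, 0.944 and 0.751 FPKM in Limnodrilus guts and 27.4, 10.1 and 3.23 in commercial feed guts (-2.48 ± 0.64, adjusted p = 0.0358). Both encode proteins of the Z-disc of striated muscle. Among the 35 untested members, desmin-like LOC117408610 had 0.620, 1.25 and 3.28 FPKM in Limnodrilus guts and 0.238, 0.247 and 0.0586 in commercial feed guts, with no overlap between diets. It was picked after its values were seen, and its commercial feed values rest on few reads. Untested members without overlap also included LOC117425952 and LOC117966731, higher with Limnodrilus, and LOC117398970, LOC131698579 and LOC117419682, lower. The share of untested features without overlap was not taken.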
